A study of Homo sapiens with 27 samples.

Results

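The 39 HOX genes of the human genome encode homeodomain transcription factors and lie in the clusters HOXA, HOXB, HOXC and HOXD. Members were taken as the genes whose array probe carried the symbol HOXA, HOXB, HOXC or HOXD followed only by a number, with the brightest probe on average over all arrays standing for each gene. This gave 29 genes, represented by 35 probes, among 18665 genes with a probe of 1 symbol. They were all 10 HOXB genes, all 9 HOXC genes, all 9 HOXD genes and, of the 11 HOXA genes, only HOXA2. The other 10 HOXA genes were not analysed here. Several genes had more than 1 probe, since HOXA2, HOXB3 and HOXC4 each had a second and HOXC6 had 4.

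Within a cluster the genes stand in numerical order, and genes of the same number in different clusters are paralogues. During development the low-numbered genes act towards the head and the high-numbered genes towards the tail and the ends of the limbs, and cultured fibroblasts keep a HOX pattern that reflects where in the body they came from. HOX proteins bind DNA together with cofactors of the TALE family (PBX, MEIS and PKNOX), while Polycomb complexes keep HOX genes silent and Trithorax complexes keep them active.

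The cells were HT1080, a human fibrosarcoma line, measured on 27 bead arrays in 8 groups. Stable lines made by Geneticin selection and sorting for green fluorescent protein (GFP) carried a full-length GFP fusion of a nuclear envelope transmembrane protein (NET), namely NET29 (encoded by TMEM120A, n = 4), NET39 (PLPP7, n = 4) or NET47 (TM7SF2, n = 3), and were set against untreated cells (n = 4). Other cells were transfected transiently with the soluble nucleoplasmic part of NET29, NET39 or NET47 fused to GFP (n = 3 each) and compared with cells given NLS-GFP (n = 3), a GFP sent to the nucleus by a localisation signal. How many independent lines stood behind each stable group, and what separated the replicates of every group, the labels and methods do not fully say, so errors describe the spread between arrays.

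All values below are normalised log2 intensities of 1 probe per gene, and a difference passed the threshold when its size exceeded 0.5 on this scale and its limma p, adjusted across the whole array by Benjamini-Hochberg, was under 0.05. Because each probe binds with its own strength, levels were compared between groups for 1 gene and never between genes. In total RNA of a whole culture, fewer expressing cells and less RNA per cell cannot be told apart. A probe was counted as above background on an array when it exceeded the 95th percentile of 598 probes for olfactory receptors, taste receptors, keratin-associated proteins and defensins on that array. This level was an intensity of 51.1 to 64.3 on the untreated and stable arrays and of 60.3 to 82.4 on the transient arrays.

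As a check of the labels, TM7SF2 read 12.39 to 12.63 in the NET47 line and 6.44 to 6.62 in untreated cells, and TMEM120A read 7.98 to 8.53 in the NET29 line and 6.65 to 7.24 in untreated cells. PLPP7 did not rise in the NET39 line, where it read 5.91 to 6.04, below the 6.15 to 6.40 of untreated cells, and was above background on 0 of 4 arrays. In the fragment groups TM7SF2 averaged 6.71 with the NET47 fragment against 6.74 in NLS-GFP cells, TMEM120A 7.12 with the NET29 fragment against 6.79, and PLPP7 6.13 with the NET39 fragment against 6.14. Whether a probe lies in the expressed sequence was not examined, so the NET39 line and the fragments have no check of their labels here. Of 20 mesenchymal marker genes 10 were above background on all 27 arrays, against 2 of 17 epithelial, 3 of 16 blood and 1 of 10 endothelial markers. On the first principal component (36.2% of the variance) untreated replicate 4 lay at 22.2, among the transient arrays (9.70 to 31.2) and away from the other untreated and stable arrays (-29.0 to -7.73). Untreated replicate 2 and NET47 full-length replicate 3 stood apart on the second component (17.8% of the variance).

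Promoter sequences were sought for HOXC6 and HOXC13, which passed the threshold in the most comparisons. The RefSeq table used (GRCh38.p14, 250 bases before to 50 after a transcript start) matched 12 of the 29 members, HOXC6 and HOXC13 not among them. HOXC4, HOXC5 and HOXC6 are annotated with the same gene start, chr12 position 54016888, so the window listed for HOXC4 and HOXC5 is also the sequence around that start of HOXC6. The windows of HOXD13, which was above background on all 27 arrays, and HOXD1, which was above it on none, were added after their values had been seen, as a detected and an undetected gene of 1 cluster. Capitals mark every match, searched on both strands, to 6 short motifs. The promoter motifs were CCAAT, bound by the ubiquitous factor NF-Y, the GC box with the letters GGGCGG, bound by Sp1 and its relatives, and the TATA box, searched with the letters TATAAA, where the general transcription machinery assembles. The receptor motif had the letters AGGTCA, which are the core of many nuclear receptor sites. The homeodomain core was searched with the letters TAATTA, and the joint site of HOX and PBX proteins was searched with the letters TGATTNAT, in which N stands for any base.
HOXC4, HOXC5 and the start of HOXC6, chr12:54016638-54016937, plus strand: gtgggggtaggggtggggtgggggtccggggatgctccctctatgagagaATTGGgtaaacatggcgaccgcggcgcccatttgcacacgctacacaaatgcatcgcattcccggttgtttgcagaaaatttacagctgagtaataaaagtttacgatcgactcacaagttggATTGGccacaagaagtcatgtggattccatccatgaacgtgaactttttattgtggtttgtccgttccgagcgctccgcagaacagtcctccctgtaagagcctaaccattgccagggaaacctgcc
HOXD13, chr2:176092471-176092770, plus strand: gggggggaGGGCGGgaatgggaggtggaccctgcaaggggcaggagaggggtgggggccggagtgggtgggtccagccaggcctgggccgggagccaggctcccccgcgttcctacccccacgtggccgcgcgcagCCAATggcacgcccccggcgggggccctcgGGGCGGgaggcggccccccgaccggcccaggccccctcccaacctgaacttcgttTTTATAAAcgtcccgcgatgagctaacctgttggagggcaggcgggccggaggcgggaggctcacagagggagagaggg
HOXD1, chr2:176188418-176188717, plus strand: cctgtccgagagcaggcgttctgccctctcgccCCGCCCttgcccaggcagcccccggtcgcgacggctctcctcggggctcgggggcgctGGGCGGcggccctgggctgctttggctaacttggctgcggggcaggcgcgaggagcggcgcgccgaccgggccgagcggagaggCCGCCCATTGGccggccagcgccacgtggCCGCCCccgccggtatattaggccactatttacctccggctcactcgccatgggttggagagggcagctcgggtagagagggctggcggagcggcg

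The shared HOXC window held 2 CCAAT matches and none of the other 5 motifs, at 51.7% G and C, with 34.2% of all windows lower in G and C. HOXD13 and HOXD1 were alike in composition, with 74.0% and 74.3% G and C. HOXD13 had 2 GC boxes, 1 CCAAT match and 2 TATA box matches that overlap on opposite strands, while HOXD1 had 4 GC boxes, 1 CCAAT match directly beside one of them, and no TATA box match. Over 34943 distinct windows of the same length, CCAAT was found in 34.7%, the GC box in 44.9%, the TATA box in 11.6%, the receptor motif in 13.8%, the homeodomain core in 4.85% and the joint HOX and PBX site in 2.83%. A match is a run of letters and was not tested as a binding site.

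It was asked first which HOX genes these cells expressed, by cluster and position. Of the 29 genes, 13 (44.8%) were above background on all 27 arrays, against 44.6% of all 18665 genes, and 20 (69.0%) were above it on every array of at least 1 group, against 56.5% of all genes. Another 6 were above it on some arrays but in no whole group, and 3 on no array. These 3 were HOXB13, HOXC12 and HOXD1.

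In HOXB the genes above background on every array lay in the lower-numbered part of the cluster. They were HOXB2, which patterns the hindbrain, HOXB4, known for expanding blood stem cells, HOXB5, which acts in the gut and its nerves, HOXB7, and HOXB8, which holds back myeloid differentiation in mouse. HOXB6 was above background on 26 arrays and HOXB1, another hindbrain gene, on 24. HOXB3 interrupted this run with 5 arrays, by its other probe 4, although it lies between HOXB2 and HOXB4. HOXB9 was above background on 5 arrays and HOXB13, a gene of the prostate and hindgut, on 0.

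In HOXD the genes above background on every array lay instead at the high-numbered end. HOXD11, HOXD12 and HOXD13, which shape the forearm and digits, were above background on all 27 arrays, and HOXD10 on 25. HOXD9 was above it on 6, HOXD8 on 20, HOXD4 on 2, HOXD3 on 19 and HOXD1 on 0. HOXD8 and HOXD3 were each above background in 3 whole groups, so detection was not confined to the high-numbered end. With the 99th percentile as background, HOXD13 alone of the HOXD genes stayed above it on all 27 arrays, and HOXC4 and HOXC9 also dropped out, while the 5 HOXB genes stayed.

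In HOXC the genes from HOXC4 to HOXC9 were detected on most or all arrays, and the higher-numbered genes were mixed. HOXC4, HOXC6, HOXC8 and HOXC9, genes of the neck and trunk, and HOXC13, a gene of hair and nail, were above background on all 27 arrays. HOXC11 was above it on 23 arrays and HOXC5 on 21, but HOXC10, which acts in hindlimb motor neurons in mouse, on 3 and HOXC12 on 0. HOXA2, which patterns the pharyngeal arches, was above background on 1 array by its brighter probe and on 0 by the other.

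**Figure D1:**
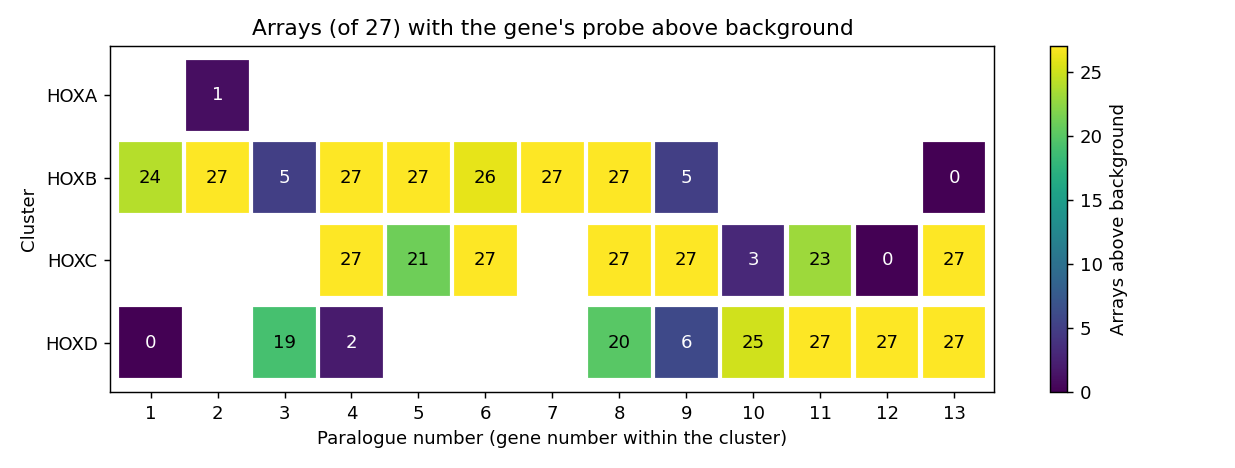
Number of arrays, of 27, on which the probe of each HOX gene was above background, by cluster (vertical axis) and paralogue number (horizontal axis). Squares are drawn only for genes measured here. In HOXB, genes 1 to 8 apart from HOXB3 were above background on at least 24 arrays, as were HOXD10 to HOXD13. HOXD8 reached 20 arrays and HOXD3 19.

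A probe that stays at background does not show that its gene is silent, as HOXC6 illustrates. Its brightest probe was above background on all 27 arrays, and its other 3 probes on 22, 2 and 0. In HOXC4 the probe used was above background on 27 arrays and the other on 0. The groups differed little in the number of members detected on every array, from 15 in NLS-GFP and NET29 soluble cells to 19 in the NET29 and NET47 lines. The genes that changed state between groups (HOXB1, HOXB6, HOXC5, HOXC11, HOXD3, HOXD8 and HOXD10) lay near the background level.

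It was next asked which HOX genes differed between the stable lines and untreated cells. HOXC6, a trunk gene also studied in breast and prostate tumours, and HOXC13, a regulator of hair keratin genes, were lower in both the NET29 and the NET39 line, by 1.46-fold to 1.75-fold. These 2 of 29 members passed in the NET29 line (against 2.28% of all genes lower there) and the same 2 in the NET39 line (against 2.57% lower). No member was higher in either line, where 1.07% and 1.22% of all genes were. No member passed in the NET47 line, where 1.22% of all genes passed in either direction and 3 members had an unadjusted p under 0.05. These calls depended on the processing, since 0 members passed in either line under median scaling, where lower calls over all genes went from 426 to 161 and from 480 to 201, or when only the arrays compared were fitted. The 3 lines share their untreated control arrays, so their differences are not independent of each other. Geneticin selection, sorting, GFP and the NET itself separate the lines from untreated cells together and cannot be told apart.

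HOXC6 read 10.32, 10.58, 10.44 and 9.73 in untreated replicates 1 to 4. It read 9.72, 9.53, 9.42 and 9.59 in the NET29 line, 9.66, 9.55, 9.14 and 9.48 in the NET39 line, and 9.75, 9.71 and 9.90 in the NET47 line. Every array of the NET29 and NET39 lines was below every untreated array, though untreated replicate 4 cleared the nearest one only narrowly, and the NET47 line overlapped that replicate alone. Of all genes, 8.17% in the NET29 line and 9.02% in the NET39 line did not overlap untreated cells, in either direction. The difference was -0.70 ± 0.14 (SE, adjusted p = 0.00309) in the NET29 line and -0.81 ± 0.14 (adjusted p = 0.000574) in the NET39 line. In the NET47 line it was -0.48 ± 0.15 (95% interval -0.79 to -0.17), with an adjusted p of 0.223. Leaving out untreated replicate 4, which stood with the transient arrays, made HOXC6 pass in all 3 lines, at -0.88, -0.99 and -0.66 (adjusted p = 2.34e-05, 4.11e-06 and 0.00461). Between arrays left out 1 at a time, the estimate ran from -0.88 to -0.60 in the NET29 line and from -0.99 to -0.70 in the NET39 line and passed each time.

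HOXC13 read 7.55, 8.26, 8.04 and 7.65 in untreated cells. It read 7.21, 7.47, 7.41 and 7.22 in the NET29 line, 7.05, 7.31, 7.18 and 7.09 in the NET39 line, and 7.28, 7.39 and 7.89 in the NET47 line. The arrays of the NET29 and NET39 lines again lay below all untreated arrays, where 8.17% and 9.02% of all genes did not overlap. NET47 replicate 3, one of the arrays that stood apart, lay above the others of its group. The difference was -0.72 ± 0.13 (SE, adjusted p = 0.00112) in the NET39 line and -0.55 ± 0.13 (adjusted p = 0.0179) in the NET29 line, against -0.35 ± 0.14 (adjusted p = 0.53) in the NET47 line. The NET39 result passed without any single array. The NET29 result was lost without untreated replicate 2 (-0.42, adjusted p = 0.0985), untreated replicate 3 (-0.49, 0.068), NET29 replicate 1 (-0.51, 0.0747) or NET29 replicate 4 (-0.51, 0.0707).

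**Figure D2:**
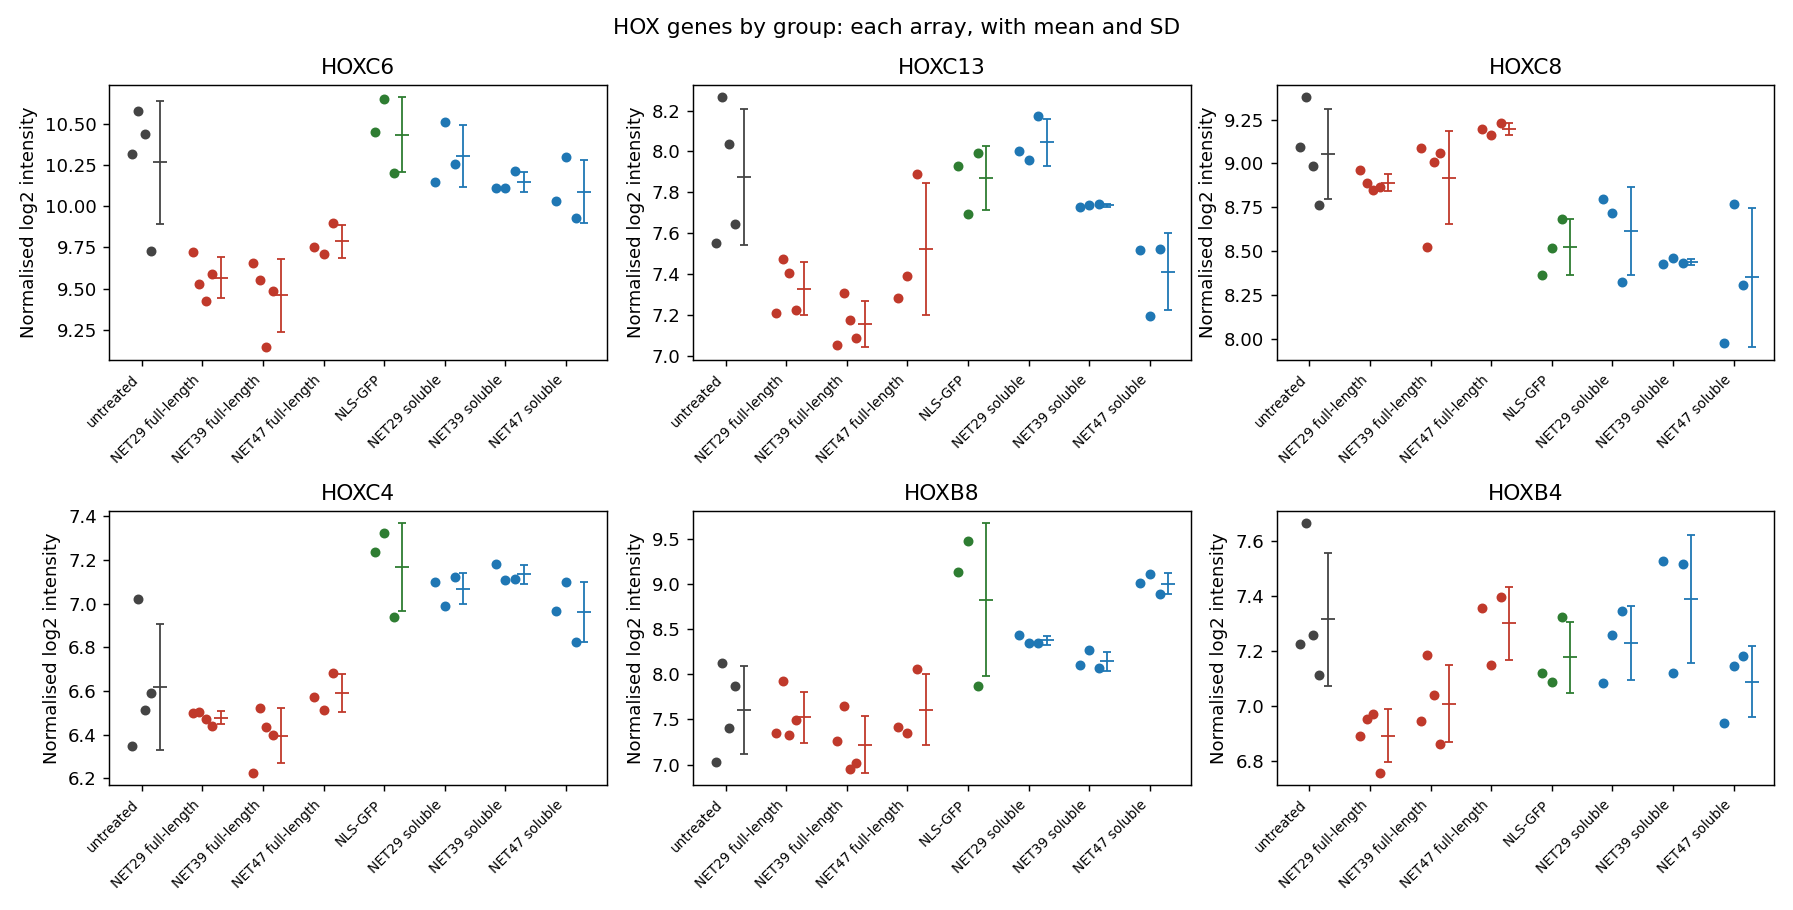
Normalised log2 intensity (vertical axes, not starting at 0) of 6 HOX genes by group (horizontal axes), with 1 point per array and the group mean and SD beside the points. HOXC6 and HOXC13 lie lowest in the NET29 and NET39 lines, and HOXC4 and HOXB8 lie high and HOXC8 low in the 4 transient groups.

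The fall of HOXC6 rested on 1 of its probes. The second HOXC6 probe, for the same RefSeq transcript, differed by -0.14 ± 0.08 in the NET29 line and -0.15 ± 0.08 in the NET39 line, and the remaining probes, which were at or near background, by 0.09 or less in size. The second probe was itself close to background in the lines, above it on 2 of 4 arrays in each, where a fall can hardly be measured. With the mean of all 4 probes the differences were -0.21 (adjusted p = 0.0655) and -0.22 (adjusted p = 0.0458), both short of 0.5. Across the 8 groups the second probe passed the F test too (adjusted p = 0.0002, largest difference 0.58), being highest in NLS-GFP cells.

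**Figure D3:**
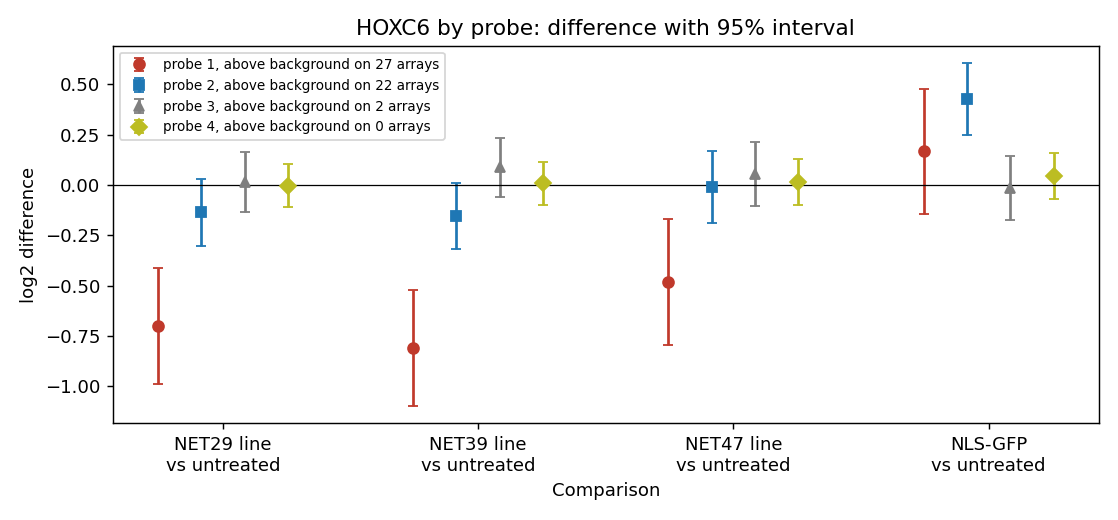
Difference from untreated cells on the log2 scale (vertical axis) of each of the 4 HOXC6 probes in the 3 lines and in NLS-GFP cells (horizontal axis), with 95% intervals from the limma fit. Only the probe above background on all 27 arrays falls in the NET29 and NET39 lines, and only the second probe lies clearly above 0 in NLS-GFP cells.

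The neighbours of HOXC6 and HOXC13 did not pass in these lines. HOXC4 differed by -0.14 and -0.22 and HOXC8 by -0.16 and -0.14 in the NET29 and NET39 lines, and HOXC5 by -0.20 and -0.14. HOXC12, next to HOXC13, was not above background on any array. HOXB4 came nearest among the other clusters, at -0.42 ± 0.11 in the NET29 line (adjusted p = 0.0281), below the size limit of 0.5. Its arrays did not overlap those of untreated cells there, as in 8.17% of all genes. In the NET39 line HOXB4 differed by -0.31. The other detected members differed little, since 17 of the 20 members detected in a whole group lay within 0.25 of 0 in the NET29 line, 16 in the NET39 line and 18 in the NET47 line. The median over all 29 members was -0.02, -0.03 and 0.00 in the NET29, NET39 and NET47 lines, and over all genes it was 0.00 in each.

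**Figure D4:**
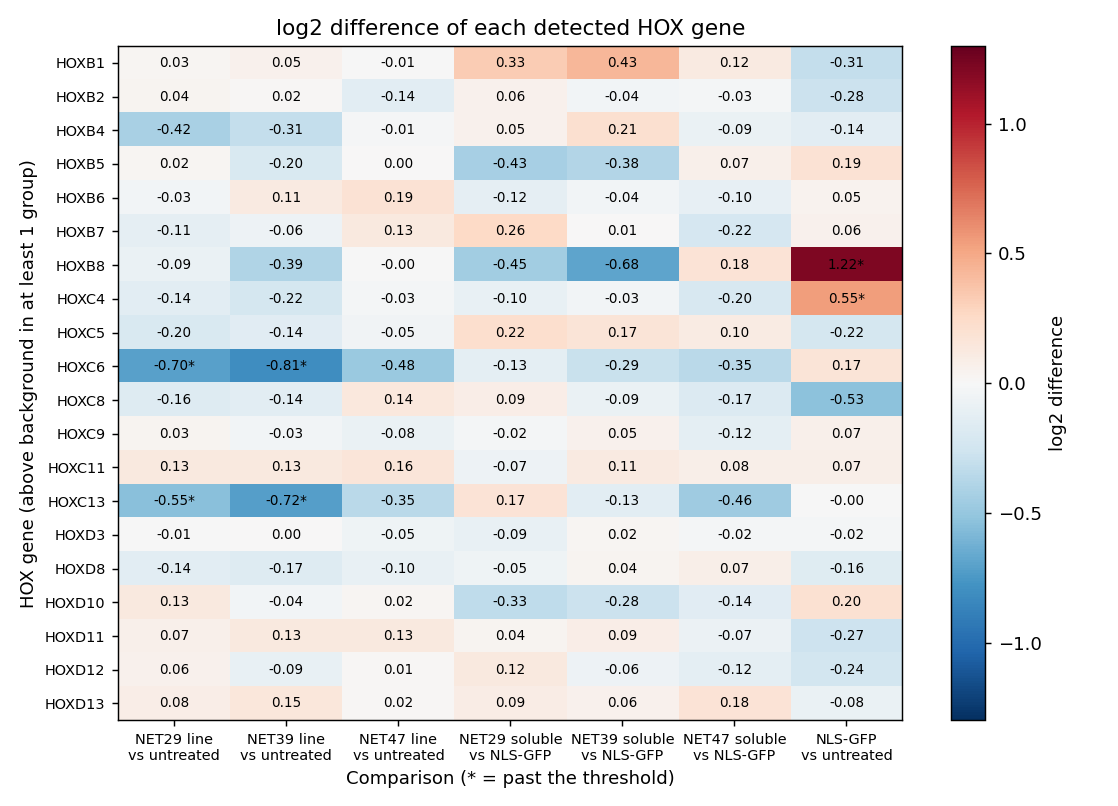
Log2 difference of the 20 HOX genes detected in at least 1 whole group (vertical axis) in the 7 comparisons with a control (horizontal axis), coloured from lower (blue) to higher (red), with a star where the threshold was passed. Stars stand at HOXC6 and HOXC13 in the NET29 and NET39 lines and at HOXB8 and HOXC4 in NLS-GFP cells, and at no other place.

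Markers of several cell types were lower in the same 2 lines. Over all genes 2.28%, 2.57% and 0.638% were lower in the NET29, NET39 and NET47 lines, and 0.584% were higher in the NET47 line. Of 20 mesenchymal markers measured, 5 were lower in the NET29 line and 6 in the NET39 line, with 1 lower in the NET47 line and none higher in any. The 1 in the NET47 line, and 1 of the 6 in the NET39 line, was COL1A2, which was not above background in any whole group. The summed level of the 20 markers, as log2, was 15.40 to 15.52 in untreated cells and 15.36 to 15.40 in the NET29 line. It was 15.30 to 15.37 in the NET39 line and 15.38 to 15.48 in the NET47 line. Of these 20 markers 5 were above background on no array. Of 16 blood markers 2 were lower in each of the NET29 and NET39 lines, HCLS1 (-1.64 and -1.52) and CSF1R (-0.62 and -0.76), and 2 were higher in the NET47 line. Their summed log2 level was 12.999 to 13.43 in untreated cells, 12.74 to 12.96 in the NET29 line and 12.96 to 13.004 in the NET39 line, and 1 of them was above background on no array. Of 17 epithelial markers 2 were lower in the NET29 line, KRT18 (-0.68) and KRT8 (-0.72), and 1 in the NET39 line, KRT18 (-0.64). Their summed log2 level was 12.21 to 12.93 in untreated cells, 11.995 to 12.21 in the NET29 line and 11.99 to 12.29 in the NET39 line, and 9 of them were above background on no array. None of 10 endothelial markers passed in a line. The part of these markers in the HOXC6 and HOXC13 results was not tested.

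Direct comparison of the lines gave no member past the threshold. In the NET39 line against the NET29 line 0 of 29 passed (0.171% of all genes), and 1 had an unadjusted p under 0.05. In the NET47 line 0 passed against the NET29 line (2.33% of all genes) and 0 against the NET39 line (2.39%), with 3 members each at an unadjusted p under 0.05. HOXC6 was higher in the NET47 than in the NET39 line by 0.33 ± 0.15 (adjusted p = 0.544). The arrays of these lines did not overlap, as in 13.8% of all genes. Against the NET29 line, HOXC6 in the NET47 line was higher by 0.22 ± 0.15 (adjusted p = 0.788). The change of HOXC6 was therefore not shown to differ between the lines.

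It was then asked whether HOX genes also differed between the soluble fragment groups and NLS-GFP cells. No member passed in the NET29 soluble (1.33% of all genes in either direction), NET39 soluble (0.145%) or NET47 soluble (1.17%) comparison with NLS-GFP by limma, and 5, 4 and 3 members had an unadjusted p under 0.05. HOXC6 read 10.45, 10.65 and 10.20 in NLS-GFP cells, 10.15, 10.51 and 10.25 with the NET29 fragment, 10.11, 10.11 and 10.21 with the NET39 fragment, and 10.03, 10.30 and 9.93 with the NET47 fragment. Each fragment group overlapped the NLS-GFP arrays. The differences were -0.13 (95% interval -0.46 to 0.20), -0.29 (-0.62 to 0.05) and -0.35 (-0.68 to -0.01) for NET29, NET39 and NET47.

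HOXC13 read 7.93, 7.69 and 7.99 in NLS-GFP cells and 8.003, 7.96 and 8.17 with the NET29 fragment. It read 7.73, 7.74 and 7.74 with the NET39 fragment and 7.52, 7.19 and 7.52 with the NET47 fragment. The NET47 fragment arrays lay below all NLS-GFP arrays, but the difference of -0.46 ± 0.15 had an adjusted p of 0.29. Of all genes 15% did not overlap in that comparison. For HOXC13, the NET29 line difference minus the NET29 fragment difference was -0.72 ± 0.20 (adjusted p = 0.0479). HOXC13 was the only member of 29 to pass among the NET29 interaction contrasts, where 2.60% of all genes were lower and 2.77% higher. No member was higher. For HOXC6 the same contrast was -0.57 ± 0.21 (adjusted p = 0.168) for NET29 and -0.52 ± 0.21 (adjusted p = 0.369) for NET39. No member passed in the NET39 (2.30% of all genes) or NET47 (0.723%) interaction, where 5 and 1 members had an unadjusted p under 0.05. The HOXC13 result for NET29 was lost in 10 of the 14 refits that left out 1 array, with adjusted p up to 0.15. Without untreated replicate 4 it was -0.80, and HOXC6 (-0.75) and HOXC5 (-0.53) passed beside it, as HOXC6 did for NET39 (-0.70). Under median scaling 109 genes were higher and 39 lower in the NET29 interaction, in place of 517 and 486. Line and transient transfection differ as modes of expression as well as in the protein carried, and these cannot be told apart.

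In the NET39 fragment comparison, the largest difference was that of HOXB8, at -0.68 ± 0.29 (adjusted p = 0.492). Without NLS-GFP replicate 3 it was -1.16 and passed (adjusted p = 0.0239), as did HOXB1 at 0.54 (adjusted p = 0.0433).

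The control transfection itself was compared with untreated cells. HOXB8 was 2.32-fold and HOXC4, a gene of the neck region, 1.46-fold higher than in untreated cells, the 2 members of 29 that passed (against 0.413% of all genes higher), and none was lower (0.702% of all genes). Under median scaling 5 genes of all were higher and 2 lower, in place of 77 and 131, and no member passed. The presence of GFP, the transfection and the higher background of the transient arrays separate these groups together and cannot be told apart.

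HOXB8 read 7.03, 8.13, 7.41 and 7.87 in untreated cells and 9.13, 9.47 and 7.87 in NLS-GFP cells. Replicate 3 of the NLS-GFP cells lay within the untreated range, and the other NLS-GFP arrays lay above it. With the fragments HOXB8 read 8.43, 8.34 and 8.35 for NET29, 8.10, 8.26 and 8.07 for NET39, and 9.01, 9.11 and 8.89 for NET47. In the lines it read 7.34, 7.93, 7.32 and 7.49 for NET29, 7.26, 7.65, 6.95 and 7.02 for NET39, and 7.41, 7.35 and 8.05 for NET47. The 12 transient arrays thus ran from 7.87 to 9.47 and the 15 untreated and stable arrays from 6.95 to 8.13. The difference between NLS-GFP and untreated cells was 1.22 ± 0.28 (SE, adjusted p = 0.0257). It failed the threshold without untreated replicate 1 (1.02, adjusted p = 0.0677), untreated replicate 3 (1.15, 0.0706), NLS-GFP replicate 1 (1.06, 0.141) or NLS-GFP replicate 2 (0.89, 0.197), and was 1.70 (adjusted p = 0.000508) without NLS-GFP replicate 3.

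HOXC4 read 6.35, 7.02, 6.51 and 6.59 in untreated cells and 7.24, 7.33 and 6.94 in NLS-GFP cells. Only untreated replicate 2 reached the NLS-GFP range. With the fragments it read 7.10, 6.99 and 7.12 for NET29, 7.18, 7.11 and 7.11 for NET39, and 6.97, 7.10 and 6.82 for NET47. In the lines it read 6.50, 6.50, 6.47 and 6.44 for NET29, 6.22, 6.52, 6.44 and 6.40 for NET39, and 6.57, 6.51 and 6.68 for NET47. The 12 transient arrays ran from 6.82 to 7.33 and the 15 untreated and stable arrays from 6.22 to 7.02. The NLS-GFP difference was 0.55 ± 0.11 (SE, adjusted p = 0.012). It fell below the threshold without untreated replicate 1 (0.46, adjusted p = 0.0334), NLS-GFP replicate 1 (0.51, 0.0792) or NLS-GFP replicate 2 (0.47, 0.106). The second HOXC4 probe was not above background on any array. The second HOXC6 probe was higher in NLS-GFP cells by 0.43 ± 0.09 (adjusted p = 0.0121), short of the size limit, while the probe used for HOXC6 differed by 0.17 ± 0.15 (adjusted p = 0.641).

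HOXC8, a thoracic gene, went the other way. It read 9.09, 9.38, 8.99 and 8.76 in untreated cells and 8.37, 8.52 and 8.69 in NLS-GFP cells, without overlap, as in 9.34% of all genes. With the fragments it read 8.80, 8.71 and 8.33 for NET29, 8.42, 8.46 and 8.43 for NET39, and 7.97, 8.77 and 8.31 for NET47. In the lines it read 8.96, 8.89, 8.85 and 8.87 for NET29, 9.09, 8.52, 9.01 and 9.06 for NET39, and 9.19, 9.16 and 9.23 for NET47. The 12 transient arrays ran from 7.97 to 8.80 and the 15 others from 8.52 to 9.38. The NLS-GFP difference was -0.53 ± 0.15 with an adjusted p of 0.0806, and it passed without untreated replicate 4 (-0.63, adjusted p = 0.0174).

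Since all 4 transient groups showed these levels, their mean was also set against untreated cells, a comparison chosen after the values had been seen. Its p-values come from the same arrays that prompted it and add no support to these differences. HOXB8 (0.98 ± 0.21, adjusted p = 0.00521) and HOXC8 (-0.57 ± 0.12, adjusted p = 0.00358) passed, and HOXC4 (0.46 ± 0.08, adjusted p = 0.00134) fell short of 0.5. These were 2 of 29 members, against 2.32% of all genes in either direction. Both remained past the threshold without untreated replicate 4, at 1.07 and -0.67.

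Across all 8 groups, 5 members passed the moderated F test with group means more than 0.5 apart, namely HOXB8, HOXC4, HOXC6, HOXC8 and HOXC13. These were 5 of 29 members, against 20.7% of all genes, a share near the background. All 5 were among the 20 members detected in a whole group, and of all genes so detected 36.7% passed. The largest difference between group means was 1.78 for HOXB8, 0.98 for HOXC6, 0.89 for HOXC13, 0.85 for HOXC8 and 0.77 for HOXC4. No HOXD gene passed. HOXD12 had an adjusted p of 0.0263 in the F test with a largest difference of 0.42, and HOXD11 had 0.0774 with 0.47 and passed when the replicate number was a block.

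HOXB7, HOXB2 and HOXB5, the remaining genes of the rule for full values, did not pass in any comparison with a control or in the F test. HOXB7, which is overexpressed in several carcinomas, had group means between 9.88 and 10.36, with an adjusted p of 0.0513. HOXB2 had means between 9.47 and 9.82 (adjusted p = 0.103), and HOXB5 between 8.72 and 9.22 (adjusted p = 0.152). Their differences in the 7 comparisons with a control lay between -0.43 and 0.26. The mean of the 4 transient groups was lower than untreated cells for HOXB2 by -0.28 (adjusted p = 0.0876), and by -0.42 (adjusted p = 0.000961) without untreated replicate 4, short of 0.5.

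Genes that act with or on HOX genes were counted from lists. Over all genes 3.35%, 3.79% and 1.22% passed in either direction in the NET29, NET39 and NET47 lines, and 1.33% with the NET29 fragment. At such shares 0 or 1 call in a short list is no result about that list. Of 8 TALE cofactors measured, 5 were detected in a whole group and only PBX3 passed in a line. It rose by 1.21 ± 0.16 in the NET29 line (adjusted p = 3.29e-05) and by 1.24 ± 0.16 in the NET39 line (adjusted p = 2.09e-05), the lines in which HOXC6 and HOXC13 were lower. Of 23 Polycomb genes, 22 of them detected, 0 passed in any line. CBX6, a Polycomb subunit that binds methylated histone H3, was lower with the NET29 fragment (-0.64, adjusted p = 0.0252). Of 14 Trithorax and demethylase genes only RBBP5, a core subunit of the Trithorax (MLL) type of histone H3 methyltransferase complex, passed in the lines. It was lower by -0.75 in the NET29 line and -0.62 in the NET39 line (adjusted p = 6.43e-05 and 0.000576). Of 11 boundary and cohesin genes, CTCF among them, 0 passed in a line. Their median difference from untreated cells was 0.28, 0.27 and 0.08 in the NET29, NET39 and NET47 lines, and 0.23 in NLS-GFP cells. The median over all genes was 0.00 in each, and these comparisons share the untreated arrays. Against NLS-GFP cells the list's median went the other way, at -0.19, -0.23 and -0.05 with the NET29, NET39 and NET47 fragments. Over all genes it was -0.015, -0.003 and 0.002 there. ZNF143 of this list passed in the NET39 interaction (0.66, adjusted p = 0.0117).

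The retinoic acid pathway, which switches on the low-numbered HOX genes in embryos, was represented by 15 genes. ALDH1A3, an enzyme that makes retinoic acid, was lower in all 3 lines, by -1.07, -1.39 and -1.33 for NET29, NET39 and NET47 (adjusted p = 0.000909, 2.89e-05 and 0.000575). CRABP2, which carries retinoic acid to the nucleus, was higher in the NET47 line by 0.81 (adjusted p = 0.000418). Of 45 other homeobox genes, 2 were higher in the NET29 line, 3 in the NET39 line and 1 in the NET47 line, and none was lower. Over all genes 1.07%, 1.22% and 0.584% were higher in these lines, and the list's median difference was 0.01, 0.00 and 0.03. ISL1, a factor of motor neurons and heart progenitors, rose in all 3, by 0.94, 0.88 and 0.88, and also with the NET47 fragment, by 1.01 (adjusted p = 1.76e-06). DLX1, a forebrain and jaw factor, rose by 0.57 and 0.64 in the NET29 and NET39 lines. PITX1, a hindlimb factor, rose by 0.51 in the NET39 line. Of 18 limb and posterior partners, PITX1 counted again, TBX3 was lower in the NET39 line (-0.55) and BMP4 in the NET29 line (-0.51).

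Genes inside and beside the clusters were counted in the same way, against the same shares of all genes. Of 17 measured genes that flank the clusters 10 were detected in a whole group and 0 passed in a line, and CBX5 beside HOXC was higher with the NET29 fragment (0.59, adjusted p = 0.0443). Of 3 measured non-coding RNA genes of the clusters, HOTAIR in HOXC was above background on 1 array, HOXC-AS1 on 3 and HOTTIP, at the HOXA13 end of the HOXA cluster, on 19, and 0 passed. All 6 caudal and ParaHox genes stayed at background in whole groups, with CDX2 above it on 1 array.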

How the data were processed

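RNA of 27 HT1080 samples was made into biotin cRNA by the authors and hybridised to Illumina HumanHT-12 v3 arrays. The deposited table of bead intensities (48803 probes, not normalised or background corrected) gave every main value. The deposited table of log2 values, quantile normalised by the authors, held 48802 probes and was an alternative. Groups were read from the sample titles, and the labels' transient transfection of the fragments was followed although the paper in 1 place calls those cells stable. Probe symbols came from the platform annotation, in which 27577 probes had 1 symbol, 13 several and 21213 none.

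Intensities were read into limma 3.58.1 (R 4.3.3), normexp corrected (offset 50, which draws small differences of dim probes towards 0), quantile normalised and taken to log2. All arrays entered 1 model of 8 group means with 19 residual degrees of freedom, tested by moderated t and F statistics with Benjamini-Hochberg adjustment over 48803 probes. Array data give no read depth, so precision is limited by the 3 or 4 arrays of each group. The fit was tested on simulated data. Full values are given for members that passed in a comparison with a control or in the F test and for the brightest detected members, and up to 4 genes per list are named. The members and lists were chosen with earlier results of these data known. Alternatives were the authors' table, other normalisations, a background filter, the mean over probes, the compared arrays alone, a replicate block, NLS-GFP as control and left-out arrays.

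Same-numbered arrays deviated together, with all correlations over 0.1, in the NET39 against NET29 lines (0.33 to 0.67) and in the NET47 fragment against NLS-GFP (0.38 to 0.61), a hint from the data and not from the labels. With the replicate block 0 members passed in either, as without it.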

Additional observations from a re-analysis of the deposited data

Results flagged for a closer look

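HOXC13 differed between the full-length NET29 and its soluble fragment by a test of the difference itself, at -0.72 (adjusted p = 0.0479). This call was lost in 10 of 14 refits that left out 1 array and under cyclic loess, median scaling and a fit of only the arrays compared. The line differed from untreated cells by -0.55 and the fragment from NLS-GFP by 0.17.

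Among 60 sets of 4 arrays (20 detected members in untreated cells and in the NET29 and NET39 lines), 7 held 1 array far from the others. In these 7 the gap to the next array was 0.83 to 0.91 of the range of the set. The 20 genes were read on the same arrays, so the sets are not independent and no chance rate is given for them. In untreated cells, replicate 4, which lay with the transient arrays on the first principal component, was high for HOXB1 (6.81, others 6.37 to 6.41) and low for HOXB2 (9.34, others 9.89 to 9.96). In the NET39 line, replicate 2 was low for HOXB2 (9.45, others 9.87 to 9.94), low for HOXC8 (8.52, others 9.01 to 9.09) and high for HOXD3 (6.40, others 6.23 to 6.25). In the NET29 line, replicate 3 was low for HOXB5 (8.50, others 9.11 to 9.17) and high for HOXD8 (6.42, others 6.19 to 6.23).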

How the results depend on the processing

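The authors' table, no background correction, the filter on background and a replicate block each kept every count of members past the threshold within 1.5 times. With the replicate block 2 members passed in each of the NET29 and NET39 lines and 2 in NLS-GFP cells, 1 in the NET29 interaction and 6 by the F test, with HOXD11 added, and it lost none of the calls named. Of 66 arrays checked for their closest partner, 31 matched their own number, including 8 of 8 in the NET39 against NET29 lines and 6 of 6 with the NET47 fragment against NLS-GFP. In the other 8 comparisons pairing by number was partial or absent. It ran from 0 of 6 with the NET39 fragment to 5 of 8 in the NET39 line against untreated cells. Same-numbered arrays correlated in the latter at 0.55, 0.50, 0.27 and -0.21 for replicates 1 to 4. In the NET29 line against untreated cells they did so at 0.49, 0.64, 0.07 and -0.10. Cyclic loess removed the NET29 interaction call (0). Median scaling left 0 members in the NET29 and NET39 lines, in NLS-GFP cells and in the NET29 interaction, and 3 by the F test, and shifted the median of all genes with the NET47 fragment from 0.00 to 0.11. The direction of HOXC6 was kept there (-0.61 and -0.72) with adjusted p of 0.839 and 0.636. Fitting only the arrays compared also left 0 in these 4 comparisons. With the mean over probes 1 member passed in each of the NET29 and NET39 lines and in NLS-GFP cells, and 3 by the F test. Without the 3 arrays that stood apart, 1 passed in the NET29 line, 1 in the NET47 line and 2 in the NET29 interaction. Against NLS-GFP cells 4 members passed in each of the 3 lines. HOXB8, HOXC4 and HOXC6 passed in all of them, HOXC13 in the NET29 and NET39 lines and HOXC8, higher, in the NET47 line. The share of all genes passing with this control is not given here. HOXB8 and HOXC4 were high in the control itself, with means of 8.82 and 7.17 against 7.61 and 6.62 in untreated cells. The paper used NLS-GFP and untransfected cells as its reference. Apart from the construction of each alternative, the cause was not tested.

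Leaving out 1 array at a time gave 1 to 2 members in the NET29 line, 2 in the NET39 line and 0 to 1 in the NET47 line. It gave 0 to 3 in NLS-GFP cells, 0 to 3 in the NET29, 0 to 1 in the NET39 and 0 in the NET47 interaction, and 5 to 6 by the F test. For the fragments it gave 0 to 2 with NET39 and 0 with NET29 and NET47, and 0 between lines. With the 99th percentile as background 9 members were detected on all arrays (HOXC4, HOXC9, HOXD11 and HOXD12 were lost), with the median of all probes 16, and with any probe of a gene 13. A fit with slide as a block was not run, as slides are not named in the files used here.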
